A study of Homo sapiens with 12 samples.

Results

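The 10 genes described here make, break down, regenerate and use glutathione. GCLC, GCLM and GSS encode its synthesis, GGT1, GGT7 and CHAC2 its breakdown, GSR its regeneration, and GPX1, GPX2 and GPX4 peroxidases that spend it. They were taken by symbol from 2 tables of counts, 1 per assay, and each table held all 10 among its 56104 genes. They had been selected on measured values, their changes between knockout and control cells in each assay and the difference of those changes, so their changes are described below with no test, and where the count of those past the fit's threshold is given, nothing is read from it.

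The cells were HCT116, a human colorectal carcinoma line, as PPM1G knockout (KO) and as control (Ctrl) cells. PPM1G is the gene of a metal-dependent protein phosphatase found in the nucleus. RNA was measured in 4 groups of 3 libraries: 4sU-seq of KO and of Ctrl cells, and RNA-seq of KO and of Ctrl cells. For 4sU-seq, cells were given 500 µM 4-thiouridine, a nucleoside that is built into new transcripts, for 10 min, and the thiol-bearing RNA was then captured through biotin from 300 µg of RNA, so that 4sU-seq reads newly made RNA and RNA-seq reads the steady-state pool. The labels state no difference in treatment between the genotypes of an assay, and ERCC spike-in RNA was added to the libraries. The 4sU-seq titles also carry S numbers, some of which recur and which fall unevenly between the genotypes. What they stand for is not given, and their part in the results was not tested. The labels used here give neither the edited site, nor whether the KO cells are 1 clone, nor what the Ctrl cells carry. The 4sU-seq replicates were seeded separately. For RNA-seq no separate cultures are stated, so its errors and p-values measure only the spread between these samples, which may be technical.

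Glutathione is a tripeptide of glutamate, cysteine and glycine and the most abundant small thiol of most cells. Glutamate-cysteine ligase, a pair of a catalytic subunit (GCLC) and a modifier subunit (GCLM), performs the limiting step, and glutathione synthetase (GSS) adds glycine. Gamma-glutamyltransferases at the cell surface open the peptide outside the cell, ChaC enzymes open it in the cytosol, glutathione peroxidases oxidise it while reducing peroxides, and glutathione reductase (GSR) returns it to the reduced form with NADPH. In many cell types the transcription factor NRF2 raises several of these genes, GCLC and GCLM among them, through antioxidant response elements.

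RefSeq promoter windows (build GRCh38.p14) were matched for 8 of the 10 genes, and the 250 bases upstream of each start site were searched on both strands for TGACNNNGC, the core of the antioxidant response element, and for TGANTCA, which AP-1 factors bind. TGACNNNGC was found in 3 of 12 windows, those of GCLM, GPX2 and the downstream start of GGT1, and in 10.9% of the 35116 windows of all genes. TGANTCA was found in 0 of 12 and in 6.57% of all windows. A match is a run of letters in a window, not a site shown to be bound. The windows of GGT1 and GCLM are shown because these genes had the largest change in each direction, and that of GPX2 because it holds the remaining match. Capitals mark TGACNNNGC, which lies on the opposite strand in all 3 windows and starts 34 bases before the start site in GCLM, 122 before it in GPX2 and 29 before it in the downstream window of GGT1. Each sequence is given 5′ to 3′ on the strand of its gene.
GGT1 upstream start, chr22:24583500-24583749, plus strand: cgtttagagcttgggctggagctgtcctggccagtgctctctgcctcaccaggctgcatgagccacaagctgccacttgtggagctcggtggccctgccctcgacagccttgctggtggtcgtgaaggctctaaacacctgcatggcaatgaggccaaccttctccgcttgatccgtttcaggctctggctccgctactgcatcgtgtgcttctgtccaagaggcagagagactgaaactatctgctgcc
GGT1 downstream start, chr22:24602943-24603192, plus strand: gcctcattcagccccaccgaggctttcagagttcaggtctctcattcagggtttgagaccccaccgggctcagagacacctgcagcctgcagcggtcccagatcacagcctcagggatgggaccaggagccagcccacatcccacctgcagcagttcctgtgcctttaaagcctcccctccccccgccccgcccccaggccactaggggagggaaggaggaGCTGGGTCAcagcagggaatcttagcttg
GCLM, chr1:93909431-93909680, minus strand: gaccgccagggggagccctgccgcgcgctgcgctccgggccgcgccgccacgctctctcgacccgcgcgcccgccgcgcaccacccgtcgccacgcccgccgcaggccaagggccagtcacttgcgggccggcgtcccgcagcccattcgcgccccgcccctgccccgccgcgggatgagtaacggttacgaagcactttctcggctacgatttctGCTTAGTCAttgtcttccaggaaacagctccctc
GPX2, chr14:64942746-64942995, minus strand: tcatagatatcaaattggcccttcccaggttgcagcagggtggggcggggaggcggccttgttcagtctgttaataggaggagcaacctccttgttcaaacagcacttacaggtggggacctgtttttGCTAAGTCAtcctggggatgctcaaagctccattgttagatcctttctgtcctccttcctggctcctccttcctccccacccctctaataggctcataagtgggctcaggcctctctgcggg

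The 4sU-seq libraries held between 79403238 and 101884166 gene counts and the RNA-seq libraries between 30962756 and 42479828. Levels are given as CPM, counts scaled to a common library size and normalised by TMM. A floor of 3 counts equals at most 0.0378 CPM in a 4sU-seq library and 0.0969 CPM in an RNA-seq library, counting error only. PPM1G itself had 98.9, 144 and 104 CPM in KO and 242, 271 and 235 CPM in Ctrl by 4sU-seq, and 97.8, 94.9 and 97.9 CPM in KO and 326, 293 and 331 CPM in Ctrl by RNA-seq. It was lower in every KO library, and where its counts lie relative to the edit is not known. By 4sU-seq all 9 epithelial markers listed (such as EPCAM, KRT8 and CDH1) had a mean above 1 CPM in KO and in Ctrl, as did 8 of 9 by RNA-seq, and none of 4 blood markers did in either group of either assay. Of 4 endothelial markers 2 did by 4sU-seq, where their sum was 12.7 to 12.9 CPM in KO and 5.97 to 6.67 CPM in Ctrl, and 0 did by RNA-seq, where it was 0.539 to 0.709 CPM in KO and 0.194 to 0.448 CPM in Ctrl. Of 5 fibroblast markers 1 did, and their sum was 9.75 to 11.1 CPM in RNA-seq KO and 4.28 to 6.27 CPM in RNA-seq Ctrl, and 9.71 to 13.7 CPM in 4sU-seq KO and 4.99 to 5.94 CPM in 4sU-seq Ctrl. The part of these markers in the results was not tested. Fewer cells expressing a gene and less RNA per cell cannot be told apart in such bulk libraries. In 1 4sU-seq library, KO replicate 2, short genes stood high and long genes low: its 2385 genes spanning under 10 kb were a median of 0.56 higher (log2) than in the other KO libraries, and its 3168 genes above 100 kb were 0.50 lower. In the other 4sU-seq libraries these medians lay between -0.37 and 0.29. Ctrl replicate 2 leaned the same way by less, at 0.17 for short and -0.16 for long genes. Results that rest on KO replicate 2 are given below with and without it.

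Levels per kb of exon could be compared between genes in RNA-seq. In KO cells GPX1 stood highest with 92.3 ± 2.64 CPM per exon kb (SD, n = 3), followed by GPX4 with 79.8 ± 2.05 and GSR with 61.0 ± 1.64. CHAC2 with 12.4 ± 0.36, GCLM with 12.3 ± 0.28, GCLC with 11.1 ± 0.56 and GSS with 9.34 ± 0.29 CPM per exon kb formed the middle, and GGT1 with 2.57 ± 0.15, GGT7 with 2.01 ± 0.30 and GPX2 with 0.872 ± 0.22 were lowest. Of these neighbours only CHAC2 and GCLM overlapped between libraries. In Ctrl cells GPX1 (90.0 ± 6.35), GPX4 (81.8 ± 6.45) and GSR (77.0 ± 2.96) again led, but each overlapped the next. GCLM followed alone with 21.7 ± 2.80, above CHAC2 (13.9 ± 1.77) and GCLC (13.1 ± 0.45), which overlapped, and GSS (11.8 ± 0.18). GGT7 (1.31 ± 0.15), GPX2 (0.800 ± 0.21) and GGT1 (0.208 ± 0.02) closed the order, without overlap. GGT1 was thus the lowest of the 10 in Ctrl and stood above GGT7 and GPX2 in KO, while GCLM stood apart from CHAC2 in Ctrl and not in KO. The counted feature is not given for 4sU-seq either, and the 4sU-seq levels were not ordered per length.

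**Figure D1:**
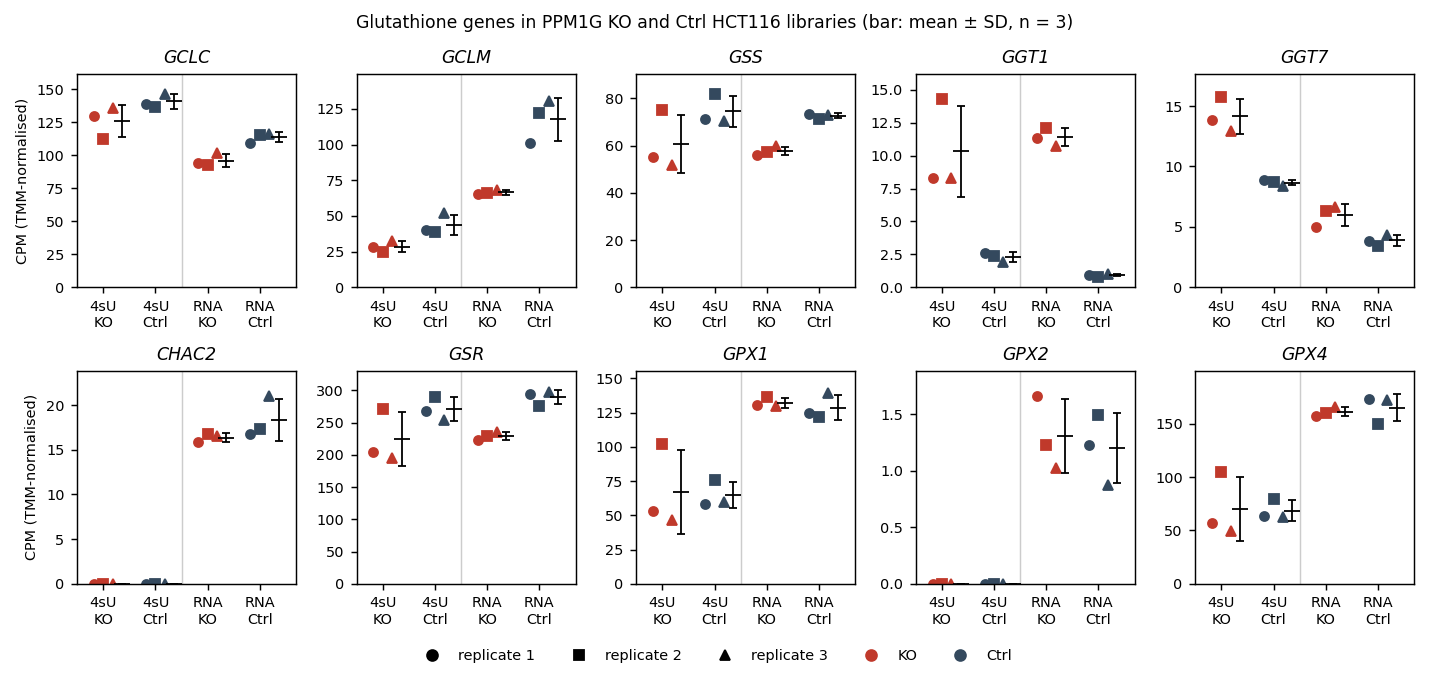
CPM of each gene in all 12 libraries (vertical axis, linear, a scale of its own for each gene), with KO left of Ctrl within each assay and the bar showing mean ± SD of 3 libraries. GGT1 and GGT7 lie higher in every KO library, GCLM lies lower in every KO library, CHAC2 and GPX2 are at 0 in all 4sU-seq libraries, and 4sU-seq KO replicate 2 (square) is the highest KO library for GSS, GSR, GPX1 and GPX4.

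In steady-state RNA the genes of the synthesis pathway were lower in KO cells, most of all the modifier subunit. GCLM (chr1:93885205-93909456, minus strand, hg38) had 65.2, 66.0 and 68.2 CPM in KO and 101, 122 and 130 CPM in Ctrl. All 3 KO libraries lay close together and below every Ctrl library, and the log2 change was -0.82 ± 0.08 (± standard error, n = 3 each), a ratio of 0.565. GCLC (chr6:53497341-53616970, minus strand), whose product carries the active site, had 93.7, 92.4 and 101 CPM in KO and 109, 115 and 116 CPM in Ctrl. Its groups did not overlap either, with a log2 change of -0.24 ± 0.06. GSS (chr20:34928433-34956027, minus strand) had 56.2, 57.1 and 59.6 CPM in KO and 73.4, 71.4 and 73.0 CPM in Ctrl. Again no KO library reached a Ctrl library, and the log2 change was -0.33 ± 0.05. Groups without overlap were also seen for 56.1% of all genes tested in RNA-seq. The change of GCLC was -0.16 with ERCC scaling and -0.06 with library size alone. That of GSS was -0.25 with ERCC scaling and smaller still with library size alone.

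In newly made RNA the same genes had values below Ctrl, with more spread. GCLM had 28.2, 24.6 and 32.7 CPM in KO and 40.3, 39.1 and 52.0 CPM in Ctrl. The groups did not overlap, as for 38.4% of all genes in 4sU-seq, and the log2 change was -0.62 ± 0.17. Over the alternatives run it lay between -0.73 and -0.35. GCLC had 129.5, 112.3 and 135.7 CPM in KO and 138.9, 136.2 and 146.6 CPM in Ctrl. The highest KO library lay just under the lowest Ctrl library, and the log2 change was -0.16 ± 0.11. GSS had 55.3, 74.8 and 51.9 CPM in KO and 71.1, 81.9 and 70.4 CPM in Ctrl. KO replicate 2 lay among the Ctrl libraries and the other KO libraries below them. GSS had a log2 change of -0.29 ± 0.17 with KO replicate 2 and of -0.54 without it.

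GGT1, the surface enzyme that opens glutathione outside the cell, had the largest difference of the 10 in both assays. By RNA-seq GGT1 (chr22:24583750-24629005, plus strand) had 11.3, 12.1 and 10.7 CPM in KO and 0.961, 0.806 and 1.00 CPM in Ctrl. Every KO library was more than 10 times every Ctrl library, and the log2 change was 3.62 ± 0.12, or 12.3-fold. By 4sU-seq it had 8.32, 14.3 and 8.30 CPM in KO and 2.61, 2.38 and 1.88 CPM in Ctrl. KO replicate 2 stood highest, all KO libraries lay above all Ctrl libraries, and the log2 change was 2.17 ± 0.27, or 4.50-fold. Without KO replicate 2 it was 1.79. Over the alternatives run, the 4sU-seq log2 change lay between 1.79 and 2.30 and the RNA-seq log2 change between 3.56 and 3.80.

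The counts of GGT1 may be shared with other genes. In GENCODE 29 on hg38, 32.9% of its exon bases lie inside the bodies of SNRPD3, LRRC75B and AP000356.1, and chromosome 22 also carries shorter copies of it. SNRPD3, the most counted of these neighbours, had 128, 123 and 138 RNA-seq CPM without TMM in KO and 125, 132 and 135 in Ctrl, with overlap, and 157, 198 and 156 4sU-seq CPM, likewise without TMM, in KO and 210, 218 and 192 in Ctrl. SNRPD3 was thus not higher in KO. LRRC75B had 2.0, 2.4 and 1.7 RNA-seq CPM without TMM in KO and 1.7, 2.0 and 1.4 in Ctrl, with overlap. It had 0 counts in every 4sU-seq library. The part of either gene in the counts of GGT1 was not tested. The copy GGTLC2 had 21, 22 and 22 RNA-seq counts in KO and 3, 2 and 3 in Ctrl, and 57, 43 and 30 4sU-seq counts in KO and 9, 8 and 12 in Ctrl. It was higher in KO in both assays, as GGT1 was, and reads of the pair could not be separated here. The pseudogene GGT3P had 1.36, 1.57 and 1.27 4sU-seq CPM without TMM in KO and 1.61, 1.70 and 1.60 in Ctrl, and so was not higher in KO in that assay, while by RNA-seq it had 6, 7 and 2 counts in KO and 0, 0 and 1 in Ctrl, few but higher in KO.

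GGT7, a gamma-glutamyltransferase family member without a well established substrate, was also higher in KO, by less. By RNA-seq GGT7 (chr20:34844720-34872860, minus strand) had 4.96, 6.31 and 6.65 CPM in KO and 3.84, 3.43 and 4.34 CPM in Ctrl. By 4sU-seq it had 13.8, 15.7 and 12.9 CPM in KO and 8.86, 8.74 and 8.40 CPM in Ctrl. The groups did not overlap in either assay. The log2 changes were 0.63 ± 0.13 in RNA-seq and 0.71 ± 0.12 in 4sU-seq, 1.54-fold and 1.63-fold. Part of its exons lies inside ACSS2 on the opposite strand, which had 25.3, 24.6 and 22.5 RNA-seq CPM without TMM in KO and 17.7, 14.6 and 15.2 in Ctrl. ACSS2 was thus higher in KO as well, and its part in the counts of GGT7 was not tested. CHAC2 (chr2:53767792-53775196, plus strand), the cytosolic enzyme that opens glutathione, had 15.8, 16.7 and 16.5 RNA-seq CPM in KO and 16.8, 17.3 and 21.1 CPM in Ctrl. The groups lay next to each other without overlap, and the log2 change was -0.16 ± 0.08.

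Of the genes that regenerate and spend glutathione, GSR was lower in KO by RNA-seq, and the KO and Ctrl libraries of each peroxidase overlapped. GSR (chromosome 8, minus strand), the reductase, had 223, 230 and 235 CPM in KO and 295, 277 and 297 CPM in Ctrl by RNA-seq. Every KO library lay below every Ctrl library, with a log2 change of -0.34 ± 0.05. The fall of GSR was smaller with library size alone, where the median log2 change of all genes was 0.19 against 0.00. GPX1 (chr3:49357171-49358600, minus strand), the main cytosolic peroxidase, had 130, 136 and 129 CPM in KO and 125, 122 and 139 CPM in Ctrl, and its groups overlapped. GPX4 (chr19:1103926-1106791, plus strand), which reduces lipid hydroperoxides in membranes, had 158, 160 and 166 CPM in KO and 173, 150 and 172 CPM in Ctrl. These groups overlapped as well. The log2 changes were 0.04 ± 0.06 for GPX1 and -0.03 ± 0.06 for GPX4. With library size alone they were 0.22 for GPX1 and 0.15 for GPX4. GPX2 (chr14:64939152-64942905, minus strand), the peroxidase typical of gut epithelium, had 1.66, 1.23 and 1.02 CPM in KO and 1.23, 1.49 and 0.875 CPM in Ctrl, with overlap and a log2 change of 0.12 ± 0.23. Reads of GPX1 could be split with its processed copy GPX1P1, which had 6.60, 7.27 and 6.91 RNA-seq CPM without TMM in KO and 5.74, 5.35 and 5.93 in Ctrl.

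By 4sU-seq the values of GPX1, GPX4 and GSR depended on KO replicate 2. GPX1, which spans 1430 bp, had 52.8, 102 and 46.5 CPM in KO and 58.4, 75.6 and 59.8 CPM in Ctrl. GPX4, which spans 2866 bp, had 57.0, 105 and 49.5 CPM in KO and 63.6, 79.7 and 62.5 CPM in Ctrl. In both, KO replicate 2 was the highest of the 6 libraries and the other KO libraries were the lowest. Their log2 changes were 0.06 ± 0.31 and 0.04 ± 0.30 with it, and -0.45 and -0.44 without it. GSR had 205, 272 and 196 CPM in KO and 268, 290 and 254 CPM in Ctrl. KO replicate 2 lay among the Ctrl libraries here too, and the log2 change was -0.27 ± 0.15 with it and -0.51 without it. With both 4sU-seq libraries numbered 2 left out, the changes were -0.42 for GSR, -0.44 for GSS and -0.29 for GPX1. The long gene GCLC, spanning 119630 bp, went the other way, with KO replicate 2 its lowest library.

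A gene is called here where its adjusted p is below 0.05 in edgeR's quasi-likelihood test over all genes. Counted over the 10, the 4sU-seq comparison had 2 genes called higher in KO (GGT1 and GGT7) and 1 called lower (GCLM) of the 8 kept by the fit, where 19.6% of all 21236 genes tested were called (12.6% higher and 6.98% lower), and 20.1% of protein-coding genes. The call of GCLM lay close to the threshold, and with ERCC scaling 1 of the 8 was called. Without KO replicate 2 the count was 7 of 8, and 11673 genes were called in all. In RNA-seq 2 were called higher (GGT1 and GGT7) and 4 lower (GCLC, GCLM, GSS and GSR) of 10 in the fit, where 48.4% of 20415 genes were called (21.5% higher and 26.8% lower), and 59.7% of protein-coding genes. The median log2 change of the members was -0.06 in 4sU-seq, where that of all genes was 0.05, and -0.10 in RNA-seq, where that of all genes was 0.00. The split of all calls moved with scaling. In RNA-seq it was 4398 higher and 5473 lower by TMM, 7423 and 2823 by library size alone, and 4372 and 2731 by ERCC scaling. In 4sU-seq it was 2684 and 1482 by TMM, 3100 and 858 by library size alone, and 672 and 44 by ERCC scaling. The median log2 change of all genes was 0.27 in 4sU-seq and 0.08 in RNA-seq with ERCC scaling, and 0.14 and 0.19 with library size alone.

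**Figure D2:**
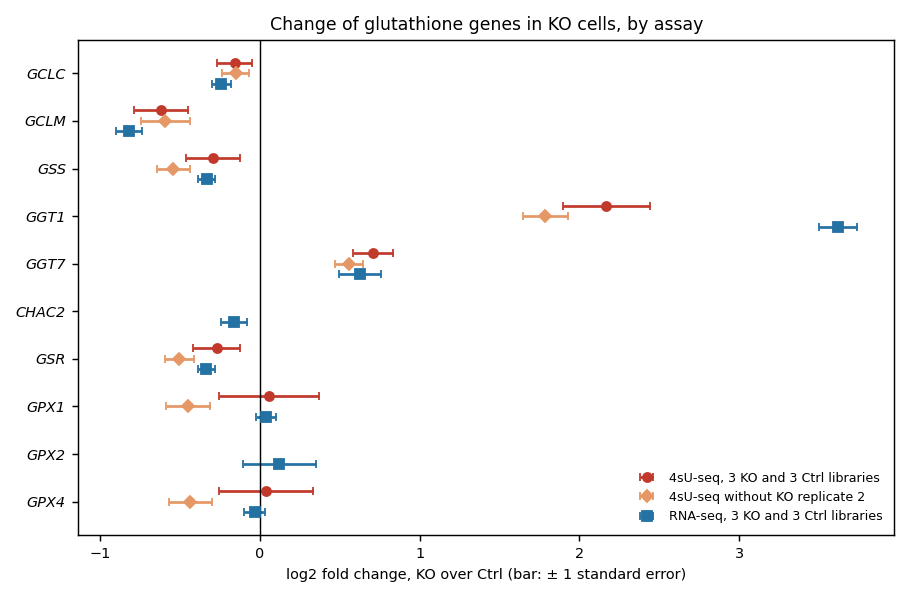
Log2 fold change of KO over Ctrl (horizontal axis) with ± 1 standard error for 4sU-seq, 4sU-seq without KO replicate 2 and RNA-seq. GGT1 lies at 2.17 in 4sU-seq and 3.62 in RNA-seq, and GPX1 and GPX4 are near 0 in 4sU-seq with all libraries and below 0 without KO replicate 2.

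Whether the change in newly made RNA equals that in the steady-state pool was asked as the 4sU-seq log2 change minus the RNA-seq log2 change. GGT1 differed by -1.46 ± 0.30, a smaller rise in 4sU-seq than in RNA-seq, and was the 1 gene of the 8 called, where 2.51% of 15863 genes were called (1.27% higher and 1.24% lower) and 2.63% of protein-coding genes. The difference was -1.73 without 4sU-seq KO replicate 2. It was not called without any other single library (-1.57 to -1.31) or with ERCC scaling (-1.41). For the other 7 the difference was 0.21 ± 0.21 for GCLM, 0.09 ± 0.14 for GCLC, 0.08 ± 0.18 for GGT7, 0.06 ± 0.14 for GSR, 0.06 ± 0.30 for GPX4, 0.03 ± 0.16 for GSS and 0.01 ± 0.32 for GPX1. Apart from that of GCLM, each of these was smaller than its standard error.

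The Ctrl cells alone show how labelled and total RNA compare without the knockout, on the log2 scale of CPM plus a pseudocount of 0.5 (4sU-seq over RNA-seq). The values compare genes with each other and are not per length. Each is a ratio of group means. Its ± is the root of the summed variances of log2 values in the 3 4sU-seq and the 3 RNA-seq libraries. GGT7 with 1.07 ± 0.15 and GGT1 with 0.97 ± 0.22 stood highest of the 8, at the 74.3 and 72.1 percentiles of 15863 genes, whose median was 0.19. GCLC had 0.31 ± 0.07, GSS 0.04 ± 0.12 and GSR -0.10 ± 0.11, at the 53.7, 44.5 and 40.2 percentiles. GCLM (-1.42 ± 0.30), GPX4 (-1.26 ± 0.23) and GPX1 (-0.99 ± 0.23) were lowest, at the 6.39, 8.37 and 13.3 percentiles. The subunits of the ligase thus lay far apart on this scale, GCLC near the median of all genes and GCLM near its lower end. GCLC spans 119630 bp and GCLM 24252 bp. GPX4 and GPX1, also low, span 2866 and 1430 bp, while GGT7, the highest with this pseudocount, spans 28141 bp. With a smaller pseudocount GGT1 stood above GGT7. The feature counted is not given, and the part of gene span in these ratios and percentiles was not tested. In KO cells the ratio of GGT1 was -0.14, and those of GCLM and GCLC were -1.21 and 0.39.

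CHAC2 and GPX2 had 0 counts in all 6 4sU-seq libraries, while RNA-seq detected both in every library. Both lie wholly inside other genes: all exon bases of CHAC2 lie inside ASB3 and GPR75-ASB3 on the opposite strand, and all those of GPX2 lie inside CHURC1 and CHURC1-FNTB, also on the opposite strand. Among 10815 protein-coding genes with a mean of at least 100 RNA-seq counts, 488 (4.51%) had 0 counts in every 4sU-seq library. Of the 502 such genes with all exon bases inside other genes, 446 (88.8%) were at 0, and of the 5030 with none, 5 (0.0994%). Where the enclosing genes were all on the opposite strand, 272 of 296 (91.9%) were at 0. CHAC2 is among the 502, while GPX2, with 33 to 61 RNA-seq counts in KO and 27 to 50 in Ctrl, lies under the minimum of 100 and was not counted. The 0 of CHAC2 and GPX2 was therefore not read as a lack of new transcripts. For GCLM, GSS, GSR, GPX1 and GPX4 no exon base lies inside another gene.

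**Figure D3:**
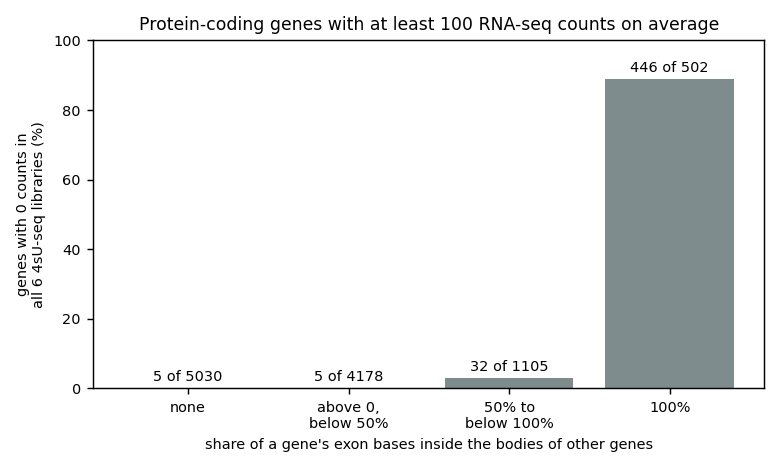
Share of protein-coding genes with 0 counts in all 6 4sU-seq libraries (vertical axis, percent), by the share of exon bases inside the bodies of other genes, for genes with a mean of at least 100 RNA-seq counts. The share is 0.0994% where no exon base overlaps another gene and 88.8% where all do, the class that holds CHAC2. GPX2 lies under the minimum of 100 counts and is not in the plot.

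A list of 107 other genes of glutathione metabolism, written from textbook roles with results of the series known in part, was read in the same fits. In RNA-seq 20 were higher and 36 lower of 91 tested (61.5% called, against 48.4% of all genes and 59.7% of protein-coding genes), with a median log2 change of -0.06. In 4sU-seq 8 were higher and 7 lower of 90 (16.7%, against 19.6% of all genes), with a median of -0.07. With ERCC scaling the counts were 15 higher and 16 lower in RNA-seq and 2 higher and 0 lower in 4sU-seq. With library size alone they were 39 and 18 in RNA-seq, so the direction of the list as a whole depended on the scaling. In the fit of all 12 libraries 18 calls stood in RNA-seq, and those of GGCT, PGD, PGLS, KEAP1, MAFG, SLC25A10, HMOX1, FTH1 and SEPSECS below were among those lost. With ERCC scaling those of LAP3, PGLS and FTH1 were lost, and that of FTH1 also with library size alone. Genes given as higher or lower below passed the test over all genes. The counts by role are to be read against the 21.5% of all genes called higher and the 26.8% called lower in RNA-seq. They hold for few genes each and moved with scaling, so nothing particular to a role is read from them.

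Of the other enzymes of breakdown 4 of 5 tested were higher and 1 lower in RNA-seq. That is 100% called, against 48.4% of all genes and 59.7% of protein-coding genes. With ERCC scaling 2 were higher and 0 lower. CHAC1, the stress-responsive relative of CHAC2, had 20.8, 30.7 and 16.9 CPM in KO and 1.95, 2.21 and 1.91 CPM in Ctrl by 4sU-seq. By RNA-seq it had 2.78, 3.41 and 2.86 CPM in KO and 2.07, 2.12 and 1.62 CPM in Ctrl. KO libraries lay above Ctrl libraries in both assays, but by far more in newly made RNA. The log2 changes of CHAC1 were 3.49 ± 0.26 in 4sU-seq (adjusted p = 0.000757, edgeR's quasi-likelihood test, Benjamini-Hochberg) and 0.63 ± 0.15 in RNA-seq (adjusted p = 0.00344), and their difference was 2.85 ± 0.28 (adjusted p = 0.00163). CHAC1 passed under all 16 alternatives in 4sU-seq (highest adjusted p = 0.0129) and all 23 for the difference (highest 0.0145). It differed in the opposite direction to GGT1. GGCT, the cyclotransferase of gamma-glutamyl amino acids, was higher in RNA-seq (0.30 ± 0.07), and the aminopeptidase LAP3 was lower (-0.34 ± 0.06).

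Cystine enters cells through SLC7A11, with SLC3A2 as its partner. SLC7A11 had 162, 38.4 and 164 CPM in KO and 18.8, 15.0 and 38.9 CPM in Ctrl by 4sU-seq. KO replicate 2 lay below Ctrl replicate 3, so the groups overlapped. The log2 change was 2.33 ± 0.63 (adjusted p = 0.0459), lost under 7 of 16 alternatives, among them ERCC scaling and leaving out any single library but KO replicate 2 (adjusted p from 0.000209 to 0.168 over the 16). By RNA-seq SLC7A11 was higher by 0.24 ± 0.08 (adjusted p = 0.0236), which was lost without KO replicate 2 or KO replicate 3 and in the fit of all 12 libraries (highest adjusted p = 0.758). SLC3A2 was lower by RNA-seq, at -0.40 ± 0.05 (adjusted p = 2.09e-05).

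NADPH, which GSR consumes, is supplied by the pentose phosphate pathway and by other dehydrogenases. Of 12 such genes tested in RNA-seq 8 were lower and 3 higher, 91.7% called against 48.4% of all genes and 59.7% of protein-coding genes. With ERCC scaling 1 was lower and 2 higher, and with library size alone 3 and 3. The pentose phosphate enzymes PGD (-0.42 ± 0.06) and PGLS (-0.35 ± 0.06) fell, and the dehydrogenase IDH1 (0.61 ± 0.07) rose. MTHFD1, a folate enzyme, was lower in 4sU-seq (-0.65 ± 0.14), a call which was lost with ERCC scaling and without any single library but KO replicate 2. MTHFD1 was called higher in RNA-seq, with 160, 161 and 164 CPM in KO and 139, 132 and 138 CPM in Ctrl. In 4sU-seq 1 of 13 genes of this group was lower and 0 were higher, where 19.6% of all genes were called.

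Of NRF2 and its partners 6 of 10 genes were lower and 0 higher in RNA-seq, 60% called against 59.7% of protein-coding genes, with a median log2 change of -0.26. With ERCC scaling 4 were lower and 0 higher, and with library size alone 4 and 2. KEAP1, which directs NRF2 to degradation, was at -0.49 ± 0.06, and the small MAF partners MAFK and MAFG were at -0.48 ± 0.05 and -0.40 ± 0.05. NFE2L2, which encodes NRF2, was among the 6. In 4sU-seq 0 of 10 passed, where 19.6% of all genes were called. Of 12 thioredoxin and peroxiredoxin genes tested in RNA-seq 3 were lower and 0 higher. That is 25% called, against 48.4% of all genes and 59.7% of protein-coding genes. With library size alone 3 were lower and 6 higher. PRDX6, a peroxiredoxin that repairs phospholipids, was at -0.84 ± 0.06 in RNA-seq and -0.76 ± 0.18 in 4sU-seq, and thioredoxin reductase TXNRD1 was at -0.47 ± 0.06 in RNA-seq and -0.48 ± 0.07 in 4sU-seq. SRXN1, sulfiredoxin, was lower in RNA-seq at -0.49 ± 0.09. The 4sU-seq call of PRDX6 was lost under 8 of 16 alternatives, among them ERCC scaling and leaving out any single library but KO replicate 2, and that of TXNRD1 with ERCC scaling and without Ctrl replicate 2.

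Among the transferases that attach glutathione to other molecules, 6 of 13 tested were higher and 3 lower in RNA-seq. That is 69.2% called, against 48.4% of all genes and 59.7% of protein-coding genes. With ERCC scaling 5 were higher and 1 lower. MGST2, a membrane-bound transferase, had 11.4, 11.7 and 11.3 CPM in KO and 5.94, 4.72 and 6.06 CPM in Ctrl, without overlap, a log2 change of 1.04 ± 0.10. It was also higher in 4sU-seq at 0.83 ± 0.10 (adjusted p = 0.00387), a call lost with ERCC scaling and kept under the other 15 alternatives. GSTO2, another transferase, was lower in RNA-seq at -0.34 ± 0.05. Glutaredoxin GLRX, which removes glutathione from proteins, had 21.7, 20.2 and 21.3 CPM in KO and 7.76, 8.54 and 10.2 CPM in Ctrl by RNA-seq, a log2 change of 1.26 ± 0.09, and like CHAC2 and GPX2 had 0 counts in every 4sU-seq library. Of the transporters 5 of 9 were lower and 2 higher in RNA-seq, 77.8% called against 48.4% of all genes and 59.7% of protein-coding genes. The counts were 2 and 2 with ERCC scaling, and 2 and 3 with library size alone. The exporters ABCC3 and ABCC1 were at -0.93 ± 0.08 and -0.37 ± 0.06, and the mitochondrial carrier SLC25A10 was at 0.37 ± 0.06.

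GPX4 guards against lipid peroxidation, and the 8 genes listed beside it include iron genes and genes that promote that process as well as guards. Of these 8, 5 were lower and 0 higher in RNA-seq, 62.5% called against 59.7% of protein-coding genes. The counts were 3 and 0 with ERCC scaling, and 2 and 2 with library size alone. AIFM2, which reduces ubiquinone in membranes, was at -0.46 ± 0.05 in RNA-seq and -0.67 ± 0.17 in 4sU-seq. Haem oxygenase HMOX1 was at -0.41 ± 0.07 and the ferritin heavy chain FTH1 at -0.24 ± 0.06 in RNA-seq. GPX1, GPX2 and GPX4 contain selenocysteine. Of 7 genes for its insertion 42.9% were called, against 59.7% of protein-coding genes. Of these, 2 were lower (EEFSEC at -0.40 ± 0.08 and SCLY at -0.23 ± 0.07) and 1 higher (SEPSECS at 0.30 ± 0.08). The call of SCLY was lost under 9 of 16 alternatives, and the 4sU-seq call of AIFM2 under 8 of 16, among them leaving out any single library but KO replicate 2.

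**Figure D4:**
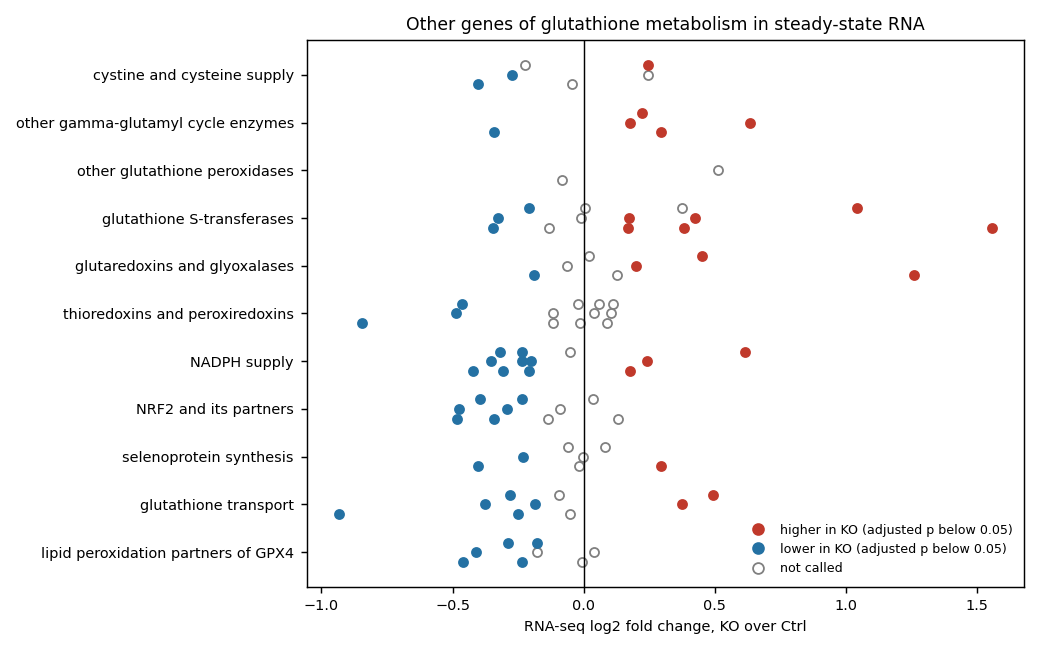
RNA-seq log2 fold change of KO over Ctrl (horizontal axis) for the other genes of glutathione metabolism that were tested, by role (rows), 1 circle per gene with vertical offsets for legibility only. Filled circles are genes called higher or lower. NRF2 and its partners hold 6 called lower and 0 higher, and the breakdown enzymes 4 higher and 1 lower, with the TMM scaling that was plotted. Of all genes 21.5% were called higher and 26.8% lower. The counts moved with scaling, and nothing particular to a role is read from them.

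The genes most like GGT1 across the 12 libraries were sought by the root mean square distance of log2 CPM. Each gene was centred on its Ctrl mean in the same assay. Candidates were the 11979 other genes that reached a minimum mean level in both assays. MMP14, a membrane-bound metalloproteinase, was nearest at 0.24, followed by KLK10, a secreted serine protease, at 0.34 and EPN3, an epsin, at 0.41. MMP14 had a log2 change of 1.68 in 4sU-seq and 3.62 in RNA-seq, KLK10 2.51 and 2.65, and EPN3 1.55 and 2.48. The 3 genes were picked for their likeness to GGT1 in these same libraries, so changes near those of GGT1 follow from the choice.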

How the data were processed

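The authors deposited 1 table of raw gene counts per assay, with 56104 gene IDs and 92 ERCC species each. Per the submitters' processing notes, FastQC 0.11.2, HISAT2 2.1.0, SAMtools 1.3 and featureCounts were used with hg38. Annotation, counted feature, strandedness and handling of multiply aligned reads: not given in the sources used here. Coordinates came from GENCODE 29, which matched 52890 IDs (94.3%), and promoter sequences from RefSeq (GRCh38.p14).

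Genes were kept by filterByExpr (minimum count 10), scaled by TMM without ERCC counts, and tested for KO against Ctrl in each assay with edgeR 4.0.16 (quasi-likelihood F test, two-sided, Benjamini-Hochberg over all genes, threshold 0.05). Standard errors are the absolute log2 change over the root of F. The difference between assays is the genotype-by-assay interaction, fitted on the 12 libraries together. R 4.3.3, limma 3.58.1, DESeq2 1.42.0 (an alternative), Python 3.11.15, pandas 2.3.3 and matplotlib 3.10.9 were used. Each fit was first checked on simulated counts that held known changes. These had few changed genes, a fixed dispersion per assay and no library effects. The check therefore cannot speak to the choice of scaling or to 4sU-seq KO replicate 2.

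The members and lists were chosen with earlier results of these data known. Genes could be named if they were among the 10 members, PPM1G, the up to 3 called genes with the smallest p per role and comparison of the pathway list, or the 3 genes most like GGT1. Not all pathway genes that met this rule are named above. NFE2L2, the call of MTHFD1 in RNA-seq, and the neighbours and copies of GGT1 and GPX1 fall outside that rule and were named after their values were seen. Alternatives were other scalings (ERCC, library size alone, DESeq2 size factors, 1 TMM run for both assays), other count filters (no filter, or an average of 50 counts), a replicate block, replicate 1 against the others as a factor, leaving out libraries, merging RNA-seq KO replicates 1 and 2, 1 fit of the 12 libraries, the Wald test of DESeq2, a comparison with the 500 genes nearest in span, and other pseudocounts.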

Additional observations from a re-analysis of the deposited data

Results flagged for a closer look

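The KO effects of 3 genes outside the 10 differed between the assays by the interaction test of genotype and assay (edgeR's quasi-likelihood test, 3 libraries per group), given as the 4sU-seq log2 change minus the RNA-seq log2 change. CHAC1 differed by 2.85 (adjusted p = 0.00163), with a rise in both assays that was larger in 4sU-seq. MTHFD1 differed by -0.90 (adjusted p = 0.00597): it averaged 77.5 CPM in KO and 122 CPM in Ctrl by 4sU-seq, and 162 CPM in KO and 137 CPM in Ctrl by RNA-seq. Its difference passed under 22 of 23 alternatives and failed with ERCC scaling. ABCC3 differed by 0.69 (adjusted p = 0.0268): it averaged 44.5 CPM in KO and 52.7 CPM in Ctrl by 4sU-seq, and 10.3 CPM in KO and 19.6 CPM in Ctrl by RNA-seq. That difference passed under 9 of 23 alternatives. GGT1, with a difference of -1.46, had been chosen with this contrast known, so its value is a description with no test. It was not called with ERCC scaling (-1.41) or when any single library other than 4sU-seq KO replicate 2 was left out (-1.57 to -1.31).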

How the results depend on the processing

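GGT1 and GCLM kept their direction in both assays under all alternatives run. The causes of the moves below were not tested. In 4sU-seq (4166 genes, 3 members and 15 pathway genes called), ERCC scaling gave 716, 1 and 2, and leaving out both libraries numbered 2 gave 10893, 6 and 49. The fit of all 12 libraries gave 6608 genes and 31 pathway genes, and replicates 2 and 3 against 1 as a factor gave 2493 and 9. Leaving out single libraries gave 1322 to 11673 genes, 1 to 7 members and 5 to 50 pathway genes, the highest without KO replicate 2. In RNA-seq (9871 genes, 6 members and 56 pathway genes) the fit of all 12 libraries gave 4789 genes and 18 pathway genes, and ERCC scaling 31 pathway genes. For the difference between assays (398 genes, 1 member and 3 pathway genes), ERCC scaling gave 7, 0 and 1, no filter 190 genes, replicates 2 and 3 against 1 as a factor 99 genes and 0 members, the DESeq2 Wald test 1119 genes and 10 pathway genes, both libraries numbered 2 left out 3928 genes and 19 pathway genes, and RNA-seq KO replicates 1 and 2 added into 1 library 108 genes and 0 members. Leaving out single libraries gave 86 to 4361 genes, 0 to 1 members and 2 to 23 pathway genes. Values that turned sign and passed the threshold were GPX1 in 4sU-seq without KO replicate 2 (-0.45) and without both libraries numbered 2 (-0.29), GPX4 in 4sU-seq without KO replicate 2 (-0.44; without single libraries GPX1 ranged up to 0.26 and GPX4 up to 0.24), and GPX4 in RNA-seq with library size alone (0.15). The Ctrl ratio of GGT1 was 1.22 with a pseudocount of 0.1, against 0.97, and it then lay above that of GGT7. Less the median of the 500 genes nearest in span, GCLC was at -0.30 in 4sU-seq and -0.18 in RNA-seq. With the replicate number as a block, 6907 genes, 3 members and 30 pathway genes were called in 4sU-seq and 656 genes for the difference. Same-numbered KO and Ctrl libraries correlated in their deviations at -0.16, 0.88 and 0.85 in 4sU-seq and -0.06, 0.21 and 0.31 in RNA-seq. In 4sU-seq the libraries numbered 2 and those numbered 3 thus deviated alike, while KO replicate 1 was closest to Ctrl replicate 3 (0.76). The numbers are not stated to pair cultures, and the main fits did not pair them. RNA-seq KO replicates 1 and 2 were the most alike (chi-square per degree of freedom 2.02, against 14.4 to 25.9 for other RNA-seq pairs), above sampling noise, and were kept as separate libraries. The files give no gene length, so that alternative could not be run. Depth limits GPX2, near 1 CPM, and GGT1 in RNA-seq Ctrl.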
